A study of Homo sapiens with 8 samples.

Results

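Transcripts of 10 genes of the BCL2 family were followed through 8 RNA libraries of AB8 cells, a human line derived from podocytes, the cells that wrap the capillaries of the kidney filter. The genes were chosen by name: the survival genes BCL2A1, BCL2, BCL2L1 and MCL1, the pore-forming effectors BAX and BAK1, and the BH3-only genes BCL2L11, BBC3, PMAIP1 and BID. All 10 were among the 58395 genes of the raw count table, and all 10 passed the filter on low counts that left 15637 genes for testing. Every library came from AB8 cells that hold the inducible construct pIND21_hCrb2+GFP_S267A, named for human CRB2, GFP and S267A, at passage 3 to 8 after modification. The 4 non-induced libraries are labelled woDox, and the 4 induced libraries came from cells given doxycycline (Dox) for 48 h. Replicate numbers 1 to 4 are used in both groups. The labels do not say whether the cells were 1 clone. Doxycycline was not given to cells lacking the construct in these libraries, and effects of the drug, of the protein and of the S267A change cannot be told apart.

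Proteins of the BCL2 family decide whether the outer mitochondrial membrane stays closed. BAX and BAK1 can open pores in it, which releases cytochrome c and starts the caspase cascade. The survival proteins hold BAX, BAK1 and the BH3-only proteins in check, and BH3-only proteins relay stress: BBC3 (PUMA) and PMAIP1 (NOXA) are known stress-response genes, BCL2L11 (BIM) a known FOXO target, and BID is cut by caspase 8 downstream of death receptors. BCL2A1 is a known NF-kB target best known from blood cells. Mature podocytes are not replaced, so their loss is a feature of glomerular disease.

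The libraries held 16829454 to 23081616 counted reads. Levels are given as CPM, read counts scaled to the TMM-adjusted library total. CRB2 stood at 8.31, 26.0, 26.4 and 21.8 CPM in non-induced libraries 1 to 4 and at 1733.5, 4252, 4599 and 4481 CPM in induced libraries 1 to 4, so every induced library carried its label. Libraries numbered 1 stood apart in both groups. Counts were compared with sampling noise between libraries of the same group. The chi-square per degree of freedom was 38.8 to 50.4 in pairs with a library 1, against 2.88 to 8.14 among libraries 2 to 4. Of 8 podocyte markers, WT1, SYNPO, PODXL and CD2AP averaged above 1 CPM, and NPHS1 had at most 2 reads in any library. The labelled podocyte origin was therefore not matched by NPHS1, which encodes nephrin of the slit diaphragm. Of 10 leukocyte markers, CSF1R alone averaged above 1 CPM.

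Without regard to the replicate numbers, 0 of the 10 members passed an FDR of 0.05 in edgeR's quasi-likelihood test, where 0.0384% of all tested genes did (0.0320% higher and 0.0064% lower). Of the members, 4 had an unadjusted p under 0.05 (BCL2A1, BCL2, BCL2L1 and BID), and DESeq2 called 1, BCL2A1, beside 1.53% of genes (0.691% higher and 0.844% lower). With the replicate number as a block, 5 of the 10 passed, beside 13.8% of genes. BCL2A1, BID and PMAIP1 fell and BCL2 and BCL2L1 rose in that fit, beside 6.29% of genes lower and 7.51% higher. DESeq2 with the block called BCL2A1, BID and PMAIP1, beside 7.08% of genes (3.65% higher and 3.43% lower). Groups did not overlap for 3 of the 10 (BCL2A1, BCL2L1 and BID), against 7.04% of genes, and 6 of the 10 had the same sign in 4 of 4 pairs, against 35.6% of genes. The median log2 change over the 10 members was -0.03, and over all tested genes 0.00.

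**Figure D1:**
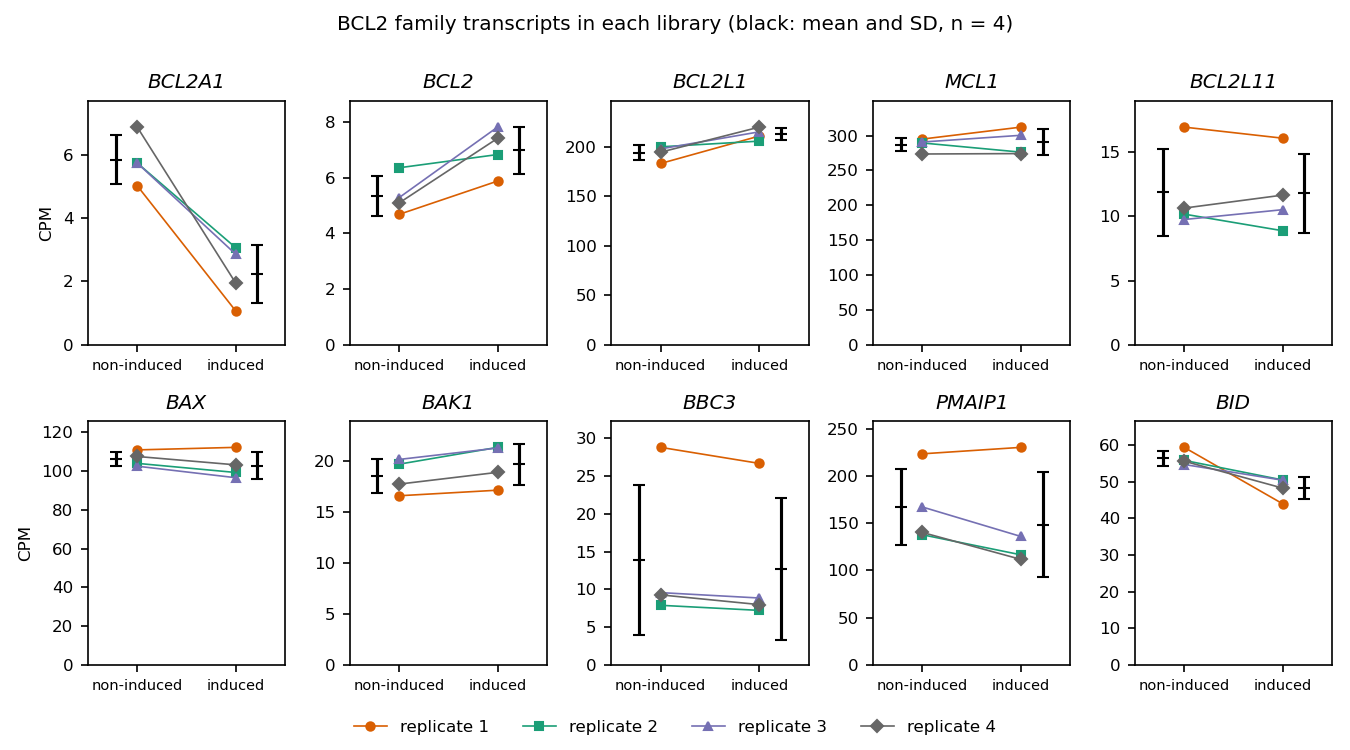
Level of each of the 10 transcripts (y axis, CPM, from 0) in non-induced and induced libraries, with a line joining the libraries of the same replicate number and the mean and SD (n = 4) in black. BCL2A1 lies lower in each induced library than in any non-induced library, and BBC3, PMAIP1 and BCL2L11 lie highest in the libraries numbered 1 of both groups.

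BCL2A1 encodes a short-lived survival protein that binds BH3-only proteins. It showed the largest change of the 10 members. Its level was 5.02, 5.74, 5.74 and 6.88 CPM in non-induced libraries 1 to 4 and 1.06, 3.06, 2.86 and 1.94 CPM in induced libraries 1 to 4. All 4 induced libraries lay below all 4 non-induced ones, and induced library 1 was the lowest of the 8. The means were 5.85 ± 0.77 and 2.23 ± 0.92 CPM (SD, n = 4 per group), and the read counts ran from 21 to 123 per library, against a limit of 3 reads that a count of 0 allows. The log2 change was -1.38 (SE 0.29), which did not pass without the block (edgeR adjusted p = 0.198). With the block it fell by 1.39 on the log2 scale (SE 0.20, edgeR adjusted p = 0.00146). Permuting the group labels of the 8 libraries gave 0.0286 (exact permutation, two-sided), and none of the 70 labelings can give a smaller p.

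The fall of BCL2A1 was unequal between pairs. Within the same-numbered pairs the log2 difference was -2.14, -0.89, -0.98 and -1.77 for pairs 1 to 4. Pairs 1 and 4 thus had the larger falls. CRB2 rose by 7.69, 7.35, 7.44 and 7.68 on the log2 scale in the same 4 pairs, a narrow range. In level, induced library 1, which had the lowest BCL2A1, also had the lowest CRB2 of the induced libraries (1733.5 against 4252 to 4599 CPM), and non-induced library 1 had the lowest CRB2 of its group. With the block, BCL2A1 passed without any 1 of the 4 pairs (edgeR adjusted p 3.08e-04 to 0.0158). It also passed without a block once both libraries numbered 1 were left out (log2 change -1.21, edgeR adjusted p = 0.00312), as did 543 genes in all. Fewer cells with the transcript and less transcript per cell cannot be told apart in these bulk libraries. Leukocyte markers summed to 4.11 to 4.39 CPM in non-induced and 2.81 to 3.81 CPM in induced libraries, while TYROBP had no read and PTPRC at most 1 read in any library.

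BCL2A1 (ENSG00000140379) spans chromosome 15 from 79960889 to 79971446 on the minus strand of GRCh38. The stretch around the only TATAAA in its promoter window is shown because it is the member that changed most. It lies at chr15:79971249-79971278 (GRCh38.p14, minus strand, RefSeq promoter table), upstream of the RefSeq start and within an exon of another GENCODE 29 transcript. Capitals mark the motif:
BCL2A1: gaggaaggatatTATAAAgtgatgcaaaca
TATAAA, searched on both strands, occurs in 11.53% of the 35116 promoter windows of the same length (250 bases before to 50 after a start). Among the members, a window of BCL2L1 also holds it, with 2 matches. In the BCL2A1 window the match begins 70 bases before the RefSeq start. The window was 41.0% G and C, against a median of 58.7% over all windows. Neither the NF-kB consensus (in 5.91% of windows) nor TGACTCA (4.95%) had a match in it, which says only that these letters are not in this window.

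**Figure D2:**
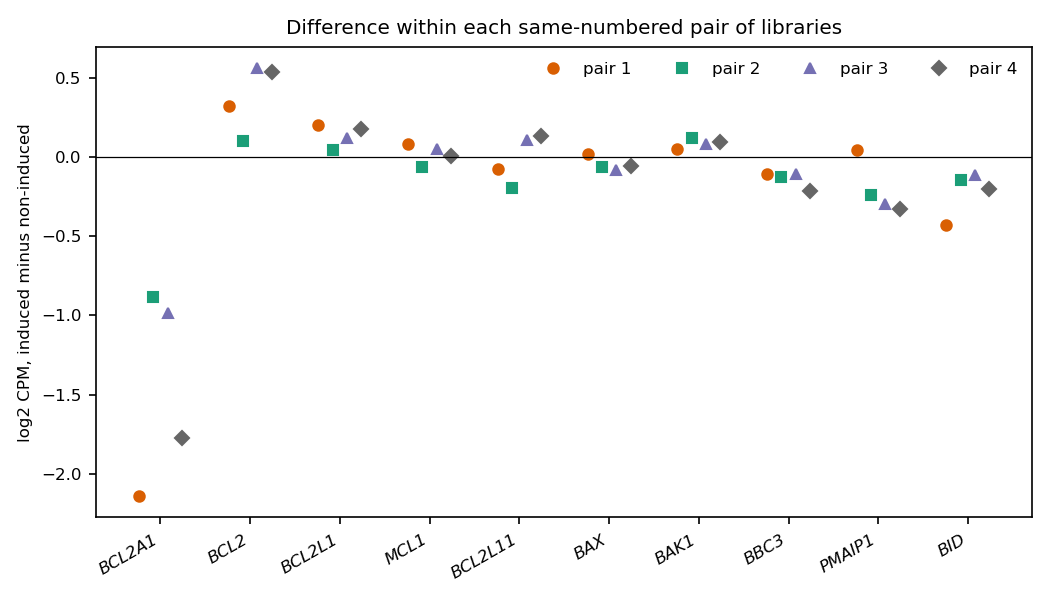
Log2 CPM of the induced minus the same-numbered non-induced library (y axis) for each of the 10 genes, with 1 symbol per pair. BCL2A1 lies between -2.14 and -0.89 in the 4 pairs, and all other values lie between -0.43 and 0.56.

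BCL2, the survival gene that gives the family its name, was measured at low depth, with 85 to 164 reads per library. It stood at 4.68, 6.35, 5.28 and 5.08 CPM in non-induced libraries 1 to 4 and at 5.87, 6.82, 7.81 and 7.41 CPM in induced libraries 1 to 4. The groups overlapped through non-induced library 2, although each induced library was above its own partner. The log2 change of 0.38 (SE 0.14) did not pass without the block (edgeR adjusted p = 0.422). With the block BCL2 rose by 0.38 (SE 0.11, edgeR adjusted p = 0.0340). That call was lost without pair 1, 3 or 4 (edgeR adjusted p 0.0678, 0.182 and 0.154) and in DESeq2 with the block (0.217).

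BCL2L1, whose main product is the survival protein BCL-XL, changed by less but with little spread. Its level was 183, 200, 198 and 195 CPM in non-induced libraries 1 to 4 and 211, 206, 215 and 220 CPM in induced libraries 1 to 4. The groups did not overlap, and the gap between them was the step from 200 to 206 CPM. The log2 change of 0.13 (SE 0.05) did not pass without the block (edgeR adjusted p = 0.424), and with the block BCL2L1 rose by 0.13 (SE 0.04, edgeR adjusted p = 0.0274). The call was lost without pair 1, 3 or 4 (edgeR adjusted p 0.101, 0.112 and 0.133) and in DESeq2 with the block (0.0908). Counts are per gene, so the long survival form and the short death-promoting form of BCL2L1 are not separated.

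MCL1, a survival protein with rapid turnover, was the most abundant of the 10 in CPM, and its groups overlapped. It stood at 295, 289, 291 and 274 CPM in non-induced libraries 1 to 4 and at 312, 276, 300 and 274 CPM in induced libraries 1 to 4. With a change of 0.02 on the log2 scale (SE 0.06, edgeR adjusted p = 0.965, and 0.812 with the block), MCL1 did not pass in either fit. HUWE1 and USP9X, a ubiquitin ligase and a deubiquitinase known to act on the MCL1 protein, had log2 changes of 0.24 and 0.17 in the same fit with the block (edgeR adjusted p 0.00233 and 0.0170). Protein amounts were not measured.

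Neither effector gene passed in any fit that was run. BAX stood at 111, 104, 102 and 107 CPM in non-induced libraries 1 to 4 and at 112, 99.2, 96.5 and 103 CPM in induced libraries 1 to 4. These groups overlapped, with a log2 change of -0.05 (SE 0.06, edgeR adjusted p = 0.895). BAK1 stood at 16.6, 19.7, 20.1 and 17.7 CPM in non-induced libraries 1 to 4 and at 17.1, 21.3, 21.2 and 18.9 CPM in induced libraries 1 to 4. It was higher in 4 of 4 pairs, by 0.05 to 0.12 on the log2 scale, and the change of 0.08 (SE 0.10) did not pass (edgeR adjusted p = 0.887, and 0.418 with the block). In both groups library 1 was the highest of the 4 for BAX and the lowest for BAK1.

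Among the BH3-only genes, BID and PMAIP1 were called with the block. BID, which links death receptors to mitochondria, stood at 59.3, 55.8, 54.7 and 55.6 CPM in non-induced libraries 1 to 4 and at 43.9, 50.4, 50.4 and 48.2 CPM in induced libraries 1 to 4. The groups did not overlap, and induced library 1 was the lowest. The log2 change of -0.22 (SE 0.06) did not pass without the block (edgeR adjusted p = 0.296). With the block BID fell by 0.22 (SE 0.05, edgeR adjusted p = 0.0127), or 14.4%. The call was lost without pair 1 or pair 4 (edgeR adjusted p 0.0559 and 0.0568) and kept in DESeq2 with the block (0.0415).

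PMAIP1, whose product mainly neutralizes MCL1 and BCL2A1, stood at 223, 138, 167 and 140 CPM in non-induced libraries 1 to 4 and at 230.3, 117, 136 and 112 CPM in induced libraries 1 to 4. It was lower in pairs 2, 3 and 4, by 0.24, 0.30 and 0.33 on the log2 scale, and in pair 1 the difference was 0.04 in the other direction. Without the block it did not pass (-0.17 on the log2 scale, SE 0.25, edgeR adjusted p = 0.915). With the block PMAIP1 fell by 0.20 (SE 0.06, edgeR adjusted p = 0.0435), and this was lost without pair 2, 3 or 4 (edgeR adjusted p 0.131, 0.129 and 0.177). Scaling by library totals or by the upper quartile also ended the call (edgeR adjusted p 0.0885 and 0.0635), while without pair 1 the log2 change was -0.29 (edgeR adjusted p = 4.59e-04).

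BBC3 and BCL2L11 did not pass in either fit. BBC3 stood at 28.8, 7.89, 9.57 and 9.27 CPM in non-induced libraries 1 to 4 and at 26.7, 7.22, 8.86 and 7.98 CPM in induced libraries 1 to 4. It was lower in 4 of 4 pairs, by 0.11 to 0.21 on the log2 scale, with a log2 change of -0.14 in the fit with the block (SE 0.07, edgeR adjusted p = 0.256). BCL2L11 stood at 16.96, 10.2, 9.76 and 10.6 CPM in non-induced libraries 1 to 4 and at 16.1, 8.88, 10.5 and 11.7 CPM in induced libraries 1 to 4. Its log2 change was -0.01 (SE 0.08 with the block, edgeR adjusted p = 0.942), with 2 pairs higher and 2 lower. For both genes the libraries numbered 1 were far above the other 6, whether induced or not.

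The same 3 BH3-only genes marked the libraries numbered 1 in both groups. Library 1 held 3.23 times the mean of the other 3 non-induced libraries for BBC3, and 3.33 times that of the other 3 induced ones. For PMAIP1 these ratios were 1.51 and 1.90, and for BCL2L11 1.66 and 1.55. A ratio of at least 1.5 in both groups was met by 3 of the 10 members, against 5.05% of tested genes. BID, the remaining BH3-only member, had 1.07 and 0.884, and the survival and effector genes lay between 0.799 and 1.13, apart from BCL2A1 in induced cells at 0.406. Of further BH3-only genes, BMF had 4.83 and 3.70 and BIK 1.84 and 1.95, while BAD went the other way, at 0.660 and 0.621. DDIT3, a stress transcription factor known to act on BH3-only genes, had 3.19 and 2.56. FOXO1, also known to act on BH3-only genes, went the other way, at 0.375 and 0.390. MDM2, a ubiquitin ligase, had 1.74 and 2.13. These ratios describe 2 libraries, and what a replicate number stands for is not given in the labels.

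**Figure D3:**
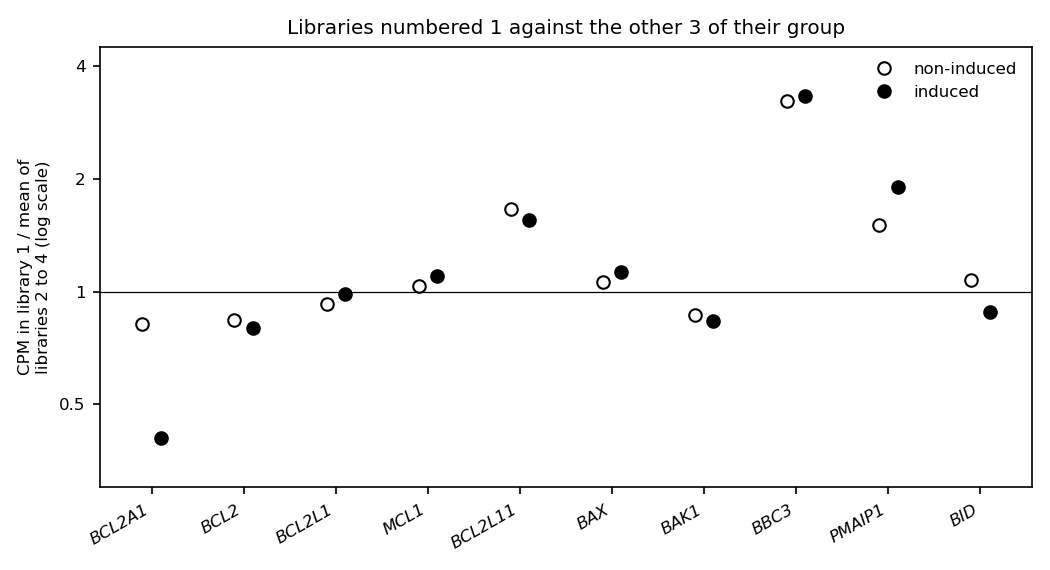
CPM in the library numbered 1 divided by the mean of libraries 2 to 4 of the same group (y axis, log scale), for non-induced (open) and induced (filled) cells. BBC3 lies above 3 in both groups, PMAIP1 and BCL2L11 between 1.51 and 1.90, and BCL2A1 in induced cells at 0.406.

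Upstream stretches of these 3 genes are shown because the genes moved together between libraries. They run from 250 bases before the RefSeq start to the start or to the first base of a GENCODE 29 exon of a coding gene, 5′ to 3′ on the gene's strand (GRCh38.p14). BBC3 is chr19:47232767-47232917 (minus strand), PMAIP1 chr18:59899746-59899947 (plus) and BCL2L11 chr2:111120664-111120913 (plus). Capitals mark matches to CACGTG and TGACTCA in BBC3, to TGACGT in PMAIP1 and to GTAAACA in BCL2L11, each searched on both strands:
BBC3: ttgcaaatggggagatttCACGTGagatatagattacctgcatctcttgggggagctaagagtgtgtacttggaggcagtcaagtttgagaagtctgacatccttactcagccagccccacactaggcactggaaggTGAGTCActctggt
PMAIP1: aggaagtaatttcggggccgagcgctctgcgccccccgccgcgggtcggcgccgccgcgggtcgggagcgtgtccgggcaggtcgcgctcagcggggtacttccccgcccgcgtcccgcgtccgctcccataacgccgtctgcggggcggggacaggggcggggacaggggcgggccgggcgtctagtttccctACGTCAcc
BCL2L11: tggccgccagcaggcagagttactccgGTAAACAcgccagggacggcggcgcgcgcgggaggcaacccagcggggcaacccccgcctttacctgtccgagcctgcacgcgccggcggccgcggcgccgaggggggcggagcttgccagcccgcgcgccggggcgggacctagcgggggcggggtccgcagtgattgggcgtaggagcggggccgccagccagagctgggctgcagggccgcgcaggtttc
CACGTG is an E-box, TGACTCA the AP-1 site, TGACGT the core of the site of CREB and ATF factors, and GTAAACA the forkhead site that FOXO proteins read. Over all windows 7.26% hold CACGTG, 4.95% TGACTCA, 7.98% TGACGT and 3.42% GTAAACA. The 3 stretches share none of the 4 motifs, and a match is a string of letters, not a measured binding site. The sequence table held windows for 9 of the 10 members, all but MCL1.

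The transcription factors FOXO1 and DDIT3, known to act on BH3-only genes, were read beside them. FOXO1 stood at 11.97 ± 4.51 CPM in non-induced and 7.58 ± 2.89 CPM in induced cells (SD, n = 4), and it fell by 0.65 with the block (SE 0.10, edgeR adjusted p = 9.65e-04, and 0.678 without the block). FOXO3, another FOXO gene, stood at 44.9 ± 6.84 and 49.0 ± 7.22 CPM. It did not pass with the block (0.12 on the log2 scale, edgeR adjusted p = 0.148). BCL2L11, whose stretch holds the forkhead site, had the log2 change of -0.01 given above. DDIT3 rose by 0.46 with the block (SE 0.08, edgeR adjusted p = 0.00175, and 0.887 without), from 16.6 ± 11.8 to 22.2 ± 12.5 CPM. In the fit with the block BBC3 and BCL2L11 did not pass, and PMAIP1 had a log2 change of -0.20 (edgeR adjusted p = 0.0435). A link between these factors and the members was not tested.

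Ratios within a library do not depend on its scaling, and 6 of them were compared as differences of log2 CPM. BCL2A1 relative to BAX went from -4.17 ± 0.20 to -5.56 ± 0.75 (SD, n = 4), 2.63-fold lower, and in 4 of 4 pairs. The groups did not overlap (exact two-sided permutation p = 0.0286, 0.171 adjusted over the 6 ratios). BCL2 relative to BAX went from -4.29 ± 0.22 to -3.87 ± 0.26, higher in 4 of 4 pairs (exact permutation p = 0.0571, adjusted 0.171). BCL2L1 relative to BAX went from 0.87 ± 0.11 to 1.05 ± 0.10, also higher in 4 of 4 pairs (exact permutation p = 0.0857, adjusted 0.171). MCL1 to BAX, BBC3 to MCL1 and PMAIP1 to MCL1 differed by 0.06, -0.16 and -0.22, each less than the spread between libraries (exact permutation p 0.400 to 0.514, each 0.514 after adjustment). Within pairs MCL1 to BAX was higher in 3 of 4, while BBC3 to MCL1 and PMAIP1 to MCL1 were both lower in 4 of 4. The spread of BBC3 to MCL1 came largely from the libraries numbered 1, at -3.35 in non-induced cells against -5.18 to -4.87 in the other 3. None of the 6 ratios passed after adjustment. This permutation does not use the pairing, and the smallest p it can give is 0.0286, which for a single separated ratio becomes 0.171 over 6.

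Levels of different genes were compared per kb of exon in non-induced cells. PMAIP1 (74.8 ± 17.8 CPM per kb, SD, n = 4), MCL1 (65.7 ± 2.15), BCL2L1 (58.5 ± 2.26) and BAX (41.0 ± 1.46) were the highest. PMAIP1 and MCL1 overlapped between libraries, and below them the order was without overlap down to BCL2A1. BID followed at 12.7 ± 0.463, BAK1 at 8.37 ± 0.754, BCL2A1 at 5.37 ± 0.704, BBC3 at 4.37 ± 3.14, BCL2L11 at 1.79 ± 0.511 and BCL2 at 0.454 ± 0.0607 CPM per kb. BCL2A1 overlapped BBC3, and BBC3 overlapped BCL2L11. BBC3 in library 1 (9.06) also reached into the range of BAK1 (7.49 to 9.10). BCL2 was thus the lowest survival gene per length. By the longest annotated transcript BAX was at 78.2, above BCL2L1 (74.3) and MCL1 (73.0), so the order of these 3 depends on which transcript length is used. The same holds for BBC3 and BCL2A1, at 7.55 and 5.66 by that length.

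BCL2A1 was then set beside 8 other NF-kB targets. With the block 4 of these fell and 0 rose, beside 6.29% of all tested genes lower and 7.51% higher, and without it 0 passed, though 5 had an unadjusted p under 0.05 and DESeq2 called 3. The median log2 change of the list was -0.84, against 0.00 for all tested genes. TNFAIP3, a feedback inhibitor of NF-kB, had log2 differences of -0.72, -0.42, -0.51 and -0.79 in pairs 1 to 4, and fell by 0.61 with the block (edgeR adjusted p = 7.78e-05). The chemokine CCL20 had differences of -3.71, -1.62, -1.93 and -2.37, fell by 2.29 with the block (edgeR adjusted p = 0.0188) and lost the call without pair 3 or 4 (0.106 and 0.126). The adhesion molecule ICAM1 fell by 0.74 (edgeR adjusted p = 0.0235, lost without pair 4 at 0.148). IL1B fell by 1.34 (edgeR adjusted p = 0.0127, lost without pair 3 or 4 at 0.0723 and 0.0731). It had only 1 to 74 reads per library. In pair 1 IL1B stood at 0.149 CPM non-induced and 0.0506 CPM induced, at or below the limit of 3 reads. The count of NF-kB targets that fell was 6 without pair 1, 2 without pair 3 and 1 without pair 4.

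**Figure D4:**
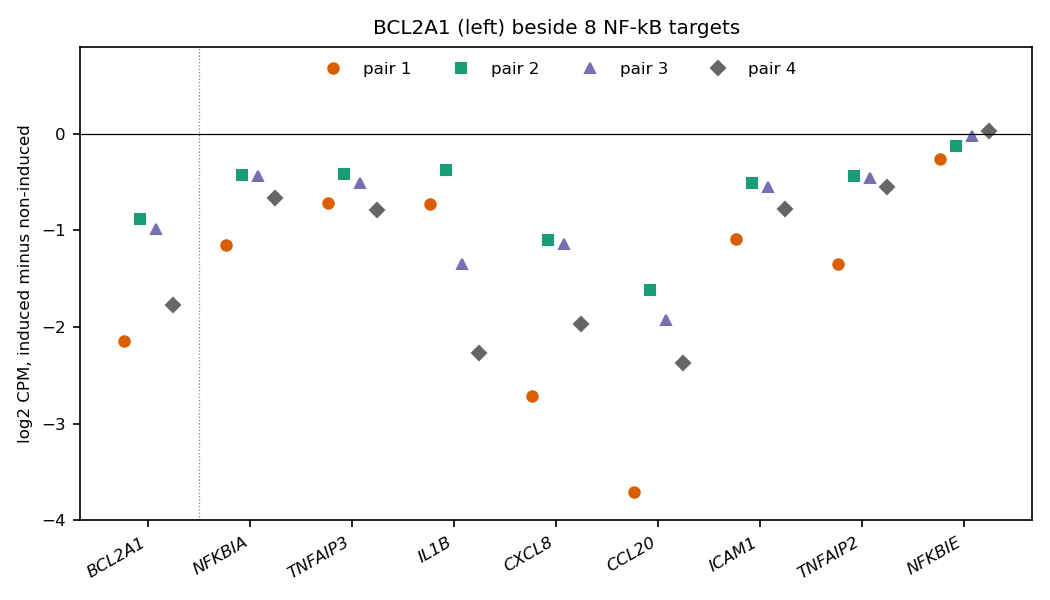
Log2 CPM of the induced minus the same-numbered non-induced library (y axis) for BCL2A1, left of the dotted line, and for 8 NF-kB targets, with 1 symbol per pair. Pairs 2 and 3 lie closest to 0 for BCL2A1 (-0.89 and -0.98) and for CCL20 (-1.62 and -1.93), and NFKBIE lies between -0.26 and 0.03 in the 4 pairs.

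The transcripts most like BCL2A1 over the 8 libraries, by Pearson's r of log2 CPM among 14037 genes with at least 1 CPM, were VDAC1 (0.993), CXCL8 (0.991) and PML (0.990). VDAC1, a channel of the outer mitochondrial membrane, went from 328 ± 5.80 to 291 ± 14.9 CPM, and the chemokine CXCL8 from 1264 ± 46.0 to 424 ± 204 CPM (SD, n = 4). The genes most like BID were MAP3K8 (0.987), PIM2 (0.984) and AMPD3 (0.982). For PMAIP1 they were SH2B2 (0.994), TRPM2 (0.990) and IER2 (0.988), for BCL2 ANKRD50, SLFN12 and RAP2C (0.974 to 0.970), and for BCL2L1 NTN4, TGFBRAP1 and SPTLC2 (0.974 to 0.963). All points of these correlations come from the same 8 libraries, 2 of which stand apart. Among the members themselves, BCL2A1 and BID correlated at 0.937, BBC3 and BCL2L11 at 0.947, BBC3 and PMAIP1 at 0.939, and BAX and BAK1 at -0.959.

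The other members of the family gave 1 call. Of 13 further genes 10 were tested, with 0 higher and 1 lower with the block (7.51% and 6.29% of all tested genes) and 0 called without it by edgeR or DESeq2 (2 had an unadjusted p under 0.05). BNIP3, an atypical family member of mitophagy and a known hypoxia target, had differences of -0.01, -0.39, -0.53 and -0.30 in pairs 1 to 4. It fell by 0.31 with the block (SE 0.08, edgeR adjusted p = 0.0386), which was lost without pair 2 or 4 (0.133 and 0.183). BCL2L2, a survival gene, and BOK, an effector relative, did not pass, at -0.04 and 0.05 on the log2 scale. The survival gene BCL2L10 and the BH3-only gene HRK were not tested, with at most 1 and 2 reads in a library.

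Downstream of the mitochondrion, 3 of 14 genes of release and caspase activation fell with the block and 0 rose, beside 6.29% of all tested genes lower and 7.51% higher. Without it 0 passed in edgeR, 3 had an unadjusted p under 0.05, and DESeq2 called 1. Of these, VDAC1 stood at 323, 323, 331 and 335 CPM in non-induced libraries 1 to 4 and at 269.9, 304, 299 and 292 CPM in induced libraries 1 to 4. The groups did not overlap, and VDAC1 fell by 0.17 with the block (SE 0.04, edgeR adjusted p = 0.00737), also without any 1 pair (0.00638 to 0.0408). CYCS, APAF1 and CASP9, the parts of the apoptosome, did not pass in that fit, at 0.02, 0.13 and -0.04 on the log2 scale.

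Genes of the inhibitors of apoptosis moved in both directions. With the block 2 of 5 rose and 1 fell, beside 7.51% and 6.29% of all tested genes. Without it 0 passed in edgeR or DESeq2 while 2 had an unadjusted p under 0.05. DESeq2 with the block gave a different balance, 1 higher and 2 lower, beside 3.65% and 3.43% of genes. BIRC6, a giant ubiquitin-conjugating inhibitor, rose by 0.26 (SE 0.04, edgeR adjusted p = 0.00193), from 119 ± 11.5 to 142 ± 3.23 CPM. XIAP, the direct inhibitor of caspases, rose by 0.16 (0.0164, lost without pair 3 or 4 at 0.139 and 0.0653, and in DESeq2 with the block at 0.0924). BIRC2 fell by 0.25 (0.00728, lost without pair 4 at 0.0591). BIRC3 had the largest log2 change of the 5, -0.66 with the block, and was lower in 4 of 4 pairs. It did not pass there (edgeR adjusted p = 0.130) but was called in DESeq2 with the block (log2 change -0.68, DESeq2 adjusted p = 0.0104).

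Of 10 death receptor genes, 2 fell and 0 rose with the block, beside 6.29% and 7.51% of all tested genes, and 0 passed without it in edgeR or DESeq2 (1 had an unadjusted p under 0.05). TNFRSF10B, a receptor of TRAIL, fell by 0.16 (SE 0.03, edgeR adjusted p = 0.00790), also without any 1 pair. TNFRSF1A, the main TNF receptor, fell by 0.15 (0.0301, lost without pair 3 or 4 at 0.145 and 0.105). CASP8, which cuts BID, did not pass (-0.05 on the log2 scale, edgeR adjusted p = 0.572).

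Of 16 regulators of member transcription or turnover, 4 rose and 3 fell with the block, beside 7.51% and 6.29% of all tested genes, and 0 passed without it in edgeR or DESeq2 (3 had an unadjusted p under 0.05). NFKB2, an NF-kB subunit gene that is itself an NF-kB target, fell by 0.39 (SE 0.05, edgeR adjusted p = 6.13e-04), in 4 of 4 pairs. RELB, its partner, fell by 0.31 (0.00451), whereas the subunit gene REL rose by 0.34 (0.00916). FOXO1, DDIT3, HUWE1 and USP9X, given above, were the other 4.

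Overlapping genes could bear on some of these counts, since the sources used here do not give the strand option used in counting. BCL2L11 shares 727 exon bases with MIR4435-2HG, a long noncoding RNA on the opposite strand, which had 3490 reads over the 8 libraries against 1910 for BCL2L11. MIR4435-2HG did not pass (0.02 on the log2 scale, edgeR adjusted p = 0.989). BCL2L1 shares 1424 exon bases with the antisense gene ABALON, which had 24 reads against 33019. The processed pseudogene BAK1P1 had 184 reads against 3111 for BAK1, so reads of BAK1 could be split with it. BCL2A1, BAX and PMAIP1 overlap no other annotated gene.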

How the data were processed

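Whole-number read counts for each Ensembl gene were deposited in 1 table, and another deposited table gives these as normalized signal, which equals the counts divided by 1 factor per library. Per the submitters' processing notes, bcl2fastq, Trimmomatic 0.38, HISAT2 2.1.0, HTSeq 0.11.1 and DESeq2 1.24.0 were used with hg38 and GRCh38. The annotation release is not given in the sources used here. Per the labels' protocols the libraries were made with a directional kit from total RNA. Symbols, exon lengths and overlaps came from GENCODE 29, which held 58275 of the 58395 genes. Genes were kept by filterByExpr (minimum count 10), scaled by TMM and tested in edgeR 4.0.16 under R 4.3.3 (quasi-likelihood test, robust, two-sided, Benjamini-Hochberg over 15637 genes, FDR 0.05). The SE is the log2 change divided by the square root of the F statistic, and log2 CPM used a prior count of 2. Likeness used genes with a mean of at least 1 CPM.

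A library's limit for a count of 0 is 3 reads, or 0.13 to 0.178 CPM, for counting error only. Nothing in the labels says that replicates are separate cultures, and p-values then cover only the spread among these libraries, which may be technical. The main fit has no replicate block. Same-numbered libraries correlated at 0.911, 0.704, 0.707 and 0.648 in their deviations from the group means (11502 genes with mean log2 CPM above 2). Each was above differently numbered pairs of the same library, so the fit with the block is given where it changes a call. Differently numbered pairs with a library 1 ran from -0.775 to -0.617, but those among libraries 2 to 4 from 0.3495 to 0.667. For numbers 2 and 3 the margin was therefore small. The members, the gene lists and the tests were chosen with earlier results of these data known. All 10 members, and from each of 7 pathway lists up to 4 called genes by p in either fit (otherwise 2), are named, together with the 3 transcripts most like each called member and genes that overlap a member. Genes named beyond that rule were chosen after their values were seen. These were BMF, BIK, BAD, USP9X, RELB, REL, FOXO3, BIRC3, BCL2L2, BOK, BCL2L10, HRK, CYCS, APAF1, CASP9, CASP8 and NFKBIE. Results for some listed genes are not reported here. The analysis was tested on simulated data. Alternatives were DESeq2 1.42.0, other scalings and filters, no robust estimation, each library or pair left out, another prior count, transcript length and the deposited normalized values.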

Additional observations from a re-analysis of the deposited data

Results flagged for a closer look

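A value is given here where 1 library of a group of 4 lay far from the other 3, with a gap to its neighbour, as a share of the group's range, above the critical value of Dixon's test. Of 76 groups checked 15 met this, 14 of them through a library numbered 1, and chance gives about 1 in 20. BBC3 in non-induced library 1 (28.8 CPM, others 7.89 to 9.57) and in induced library 1 (26.7, others 7.22 to 8.86) was the clearest case among the members. BCL2L11 in non-induced library 1 stood at 16.96 CPM against 9.76 to 10.6. The log2 ratio of BBC3 to MCL1 was -3.35 in non-induced library 1 (others -5.18 to -4.87) and -3.54 in induced library 1 (others -5.24 to -5.07).

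DDIT3 stood at 34.2 CPM in non-induced library 1 (others 10.2 to 11.7) and at 40.8 in induced library 1 (others 15.0 to 16.97). TP53INP1 stood at 10.5 (others 5.18 to 5.79) and 18.3 (others 7.57 to 9.19), and MDM2 at 146 (others 80.9 to 85.9) and 223 (others 103 to 107). ICAM1 was at 287 CPM in non-induced library 1 (others 120.4 to 139.6) and HUWE1 at 549 in induced library 1 (others 401 to 419). CRB2 was lowest in induced library 1, at 1733.5 CPM against 4252 to 4599. CCL20 in non-induced library 2, at 10.3 CPM against 12.4 to 12.6, was the only case outside the libraries numbered 1.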

How the results depend on the processing

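The count of members called was 0 without the block and 5 with the replicate block, 1 with DESeq2, 3 with DESeq2 and the block, and 0 to 1 when libraries or pairs were left out (1 without both libraries numbered 1). With the block it was 1 to 4 when a pair was left out. Over all genes 6 were called without the block, 2159 with the replicate block, 240 with DESeq2, 1107 with DESeq2 and the block, 37 with no filter, 0 to 16 without 1 library or pair 2, 3 or 4 and 543 without pair 1. With the block the count over all genes was 909 to 1969 when a pair was left out (1254 without pair 3). The pathway lists had 0 calls without the block. In the order of the report's text they were NF-kB targets, other family members, caspases, inhibitors, death receptors, regulators and 1 further list. With the block they had 4, 1, 3, 3, 2, 7 and 9 calls, of 8, 10, 14, 5, 10, 16 and 10 tested genes. Over all tested genes 13.8% were called with the block.

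Members that changed sign when libraries were left out were MCL1 (-0.02 to 0.05, on the log2 scale), BCL2L11 (-0.20 to 0.21), BBC3 (-0.80 to 0.51) and, without non-induced library 1, PMAIP1 (-0.46 to 0.00). Single-library omissions gave MCL1 up to 0.04, and omission of pair 1 or 2 gave BCL2L11 0.01 and 0.03. With the block and a pair left out MCL1 ran from -0.01 to 0.04 and BCL2L11 from -0.06 to 0.05 (0.01 without pair 1). Of these 4, PMAIP1 alone is called, and only with the block, where it stayed negative. BCL2A1 stayed negative when libraries or pairs were left out, from -1.59 to -1.15, and kept its call in the fits run with the block. The 6 ratios kept their sign and side of the threshold with a prior count of 0.5 and without each pair, although 3 against 3 libraries cannot reach an adjusted p of 0.05. The deposited normalized values moved no group ratio beyond the spread. Alternatives that combine the block with another scaling, filter or variance estimate were chosen after seeing the data. Taking the longest transcript moved 6 of the 10 levels per kb beyond their SD. Depth limits BCL2A1 and BCL2, at 21 to 164 reads a library.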
